A study of Mus musculus with 6 samples.

Results

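The genes described here encode 10 histone lysine demethylases of the mouse: Kdm1a, Kdm2a, Kdm2b, Kdm3a, Kdm3b, Kdm4a, Kdm4b, Kdm4c, Kdm5b and Kdm6b. They were chosen by name, and all 10 were found among the 21418 autosomal protein-coding genes of the GENCODE annotation of mm9, which holds 37310 genes in all. Acetylation of lysine 5 of histone H4 (H4K5ac) was profiled by ChIP-Seq in the hippocampus of mice that the labels give as C57/BL6 and aged 6 months and the methods as C57Bl6/J males. Mice of the FC group received a foot shock in an unfamiliar context in 2 sessions (contextual fear conditioning) and were tested for fear memory before the hippocampus was taken, whereas controls (CON) were handled alike in the same context without a shock. Each group has 3 libraries: chromatin pulled down by an H4K5ac antibody (H4K5ac-ChIP), a mock precipitation with IgG (IgG-IP) and sheared chromatin DNA that was not precipitated (input). The methods name several hippocampal samples per group, and whether a library pools them is not given in the sources used here. Since no library is replicated, no test was made, and every interval below is an exact 95% interval that covers counting error only. A ratio of FC over CON compares a pair of libraries, not the conditions.

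Histone lysine demethylases remove methyl groups that methyltransferases add to histone tails. Kdm1a uses a flavin cofactor and works in the CoREST complex with histone deacetylases, while the other members carry a JmjC domain that needs iron and alpha-ketoglutarate. Kdm2a and Kdm2b bind unmethylated CpG-rich DNA through a zinc finger and act on H3K36, Kdm3a and Kdm3b act on mono- and dimethylated H3K9, and the Kdm4 enzymes act on trimethylated H3K9 and H3K36. Kdm5b removes methyl groups from H3K4, a mark of active promoters, and Kdm6b from H3K27, the mark laid down by Polycomb proteins. Acetylation of H4K5 is a mark of active chromatin, found at promoters and along transcribed genes. In whole tissue, fewer cells that carry the mark at a gene and less of the mark in each cell cannot be told apart.

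Because H4K5ac was read at the starts of these genes, the 250 bases before 5 starts are shown, read from the mm9 genome on the strand of the gene with each CG dinucleotide in capitals. The pair from Kdm4c is shown because the reads at its first and second start differed, Kdm2a for the highest ratio of H4K5ac-ChIP to input in FC at a first start, Kdm4a for the most FC H4K5ac-ChIP reads at a first start, and Kdm6b for a start with few CG dinucleotides and the most CON H4K5ac-ChIP reads of the first starts. The intervals are chr4:73888151-73888400 and chr4:73897590-73897839 on the plus strand for Kdm4c, chr19:4398267-4398516 for Kdm2a, chr4:117852649-117852898 for Kdm4a and chr11:69227178-69227427 for Kdm6b, the last 3 on the minus strand.
Kdm4c, first start: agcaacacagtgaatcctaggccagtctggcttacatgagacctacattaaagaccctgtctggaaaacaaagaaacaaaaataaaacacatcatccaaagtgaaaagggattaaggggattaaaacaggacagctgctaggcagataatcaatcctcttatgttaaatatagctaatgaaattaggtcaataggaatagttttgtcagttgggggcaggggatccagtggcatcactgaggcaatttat
Kdm4c, second start: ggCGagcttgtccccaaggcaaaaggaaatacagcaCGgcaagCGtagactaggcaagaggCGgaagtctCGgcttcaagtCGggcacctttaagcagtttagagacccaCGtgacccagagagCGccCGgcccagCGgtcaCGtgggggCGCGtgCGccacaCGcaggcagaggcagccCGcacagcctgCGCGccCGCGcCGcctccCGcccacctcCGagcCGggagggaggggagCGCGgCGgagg
Kdm2a, first start: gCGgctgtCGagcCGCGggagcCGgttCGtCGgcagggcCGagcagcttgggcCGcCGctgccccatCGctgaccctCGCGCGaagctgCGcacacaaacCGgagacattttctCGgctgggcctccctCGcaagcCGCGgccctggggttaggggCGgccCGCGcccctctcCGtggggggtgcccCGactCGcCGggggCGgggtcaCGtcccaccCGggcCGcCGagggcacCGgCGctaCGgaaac
Kdm4a, first start: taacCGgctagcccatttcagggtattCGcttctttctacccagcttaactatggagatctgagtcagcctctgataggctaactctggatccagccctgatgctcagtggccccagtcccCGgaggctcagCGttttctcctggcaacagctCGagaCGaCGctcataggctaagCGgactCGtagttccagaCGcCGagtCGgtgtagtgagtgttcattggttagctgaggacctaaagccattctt
Kdm6b, first start: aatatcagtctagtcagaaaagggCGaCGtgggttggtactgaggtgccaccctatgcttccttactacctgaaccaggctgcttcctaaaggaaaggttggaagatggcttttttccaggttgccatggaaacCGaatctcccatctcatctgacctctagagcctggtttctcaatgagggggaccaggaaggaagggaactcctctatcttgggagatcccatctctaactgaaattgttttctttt
These stretches hold 0, 27, 35, 12 and 3 CG dinucleotides in the order shown.

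Over the 300 bases from 250 before to 50 after the first start, the members held between 0 CG dinucleotides (Kdm4c) and 43 (Kdm2b), beside a median of 12 over all 21418 promoters. Letters were searched on both strands in the same 300 bases. The GC box GGGCGG was found in 6 of the 10 members and in 43.8% of all promoters, the E-box CACGTG in 1 member (Kdm4b) and 7.78%, and the cyclic AMP response element TGACGTCA in no member and 2.31%. The shorter TGACG, which the full element contains, was found in 1 member (Kdm5b) and in 23.4% of all promoters. A match of letters is a description and not a binding site.

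The libraries held 31605738 (FC) and 35962226 (CON) aligned reads for H4K5ac-ChIP, 14549689 and 16491741 for IgG-IP, and 45673239 and 35493806 for input. Density is given as RPKM, the reads per kb of a region scaled to the total reads of its library. Between the input libraries the ratio of FC over CON followed GC content across windows of 10 kb (Spearman's rho 0.88 over 237017 windows), and the H4K5ac-ChIP libraries did so less (0.25 over 233840 windows). The GC content of the gene bodies was 56.8% at Kdm6b, 53.7% at Kdm4b, 49.9% at Kdm4a, 47.6% at Kdm2b, 43.5% at Kdm3b, 42.0% at Kdm5b, 41.6% at Kdm1a, 40.6% at Kdm2a, 40.1% at Kdm3a and 38.2% at Kdm4c. That of the 5 kb promoters was highest at Kdm6b with 55.5% and Kdm2b with 53.8%, and lowest at Kdm3a. The labelled tissue was checked against marker genes by their gene bodies. The median log2 ratio of H4K5ac-ChIP to input was 0.33 in FC and 0.61 in CON over 6 neuronal markers, beside 0.20 and 0.49 over all genes and -0.67 and -0.34 over 5 markers of other tissues (Alb, Krt5, Myh6, Ins2 and Apoa2). Among the markers of other brain cells it was 0.20 and 0.61 for 3 astrocyte genes, 0.64 and 0.70 for 3 oligodendrocyte genes, and -0.05 and 0.39 for 3 microglia genes. Single markers varied around these medians. The ratio reached 1.5 at 1 of the 6 neuronal markers in FC and 3 in CON, beside 22.7% and 42.8% of all genes. Of the 5 markers of other tissues 0 did in FC and 1 in CON. That was Apoa2, with a log2 ratio of 1.48 (0.50 to 2.57) from 34 H4K5ac-ChIP and 12 input reads.

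H4K5ac lay along the bodies of all 10 demethylase genes at densities above input and above IgG-IP in both groups, with the highest levels at Kdm4b and Kdm4a and the lowest at Kdm4c. A gene body runs from the first TSS to the last TTS of a gene. Kdm4b, on chromosome 17 from 56465485 to 56542293, had 1.25 RPKM of H4K5ac-ChIP in FC and 1.13 RPKM in CON, against 0.676 and 0.430 RPKM of input and 0.338 and 0.377 RPKM of IgG-IP. Kdm4a, on chromosome 4 from 117809562 to 117852648, had 1.12 and 0.987 RPKM of H4K5ac-ChIP, 0.668 and 0.449 RPKM of input and 0.316 and 0.356 RPKM of IgG-IP. Both genes encode demethylases of H3K9 and H3K36, and both were well above the median of all protein-coding genes, 0.565 RPKM in FC and 0.556 RPKM in CON. By H4K5ac-ChIP level, Kdm4b stood at percentile 98.1 in both groups, and Kdm4a at 96.0 in FC and 94.9 in CON. The third Kdm4 gene, Kdm4c on chromosome 4 from 73888401 to 74051764, had 0.512 and 0.546 RPKM of H4K5ac-ChIP, less than the median of all genes, with 0.294 and 0.400 RPKM of input. Its body is the longest of the members at 163.4 kb and has the lowest GC content, 38.2%, whereas Kdm4a and Kdm4b have 49.9% and 53.7%.

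The other members lay between these genes. Kdm3a, which acts on H3K9, had 0.805 RPKM of H4K5ac-ChIP in FC and 0.876 in CON, and its relative Kdm3b 0.759 and 0.727. Kdm1a, the flavin-dependent enzyme, had 0.764 and 0.819 RPKM. The CpG-binding pair had 0.713 and 0.719 RPKM at Kdm2b and 0.617 and 0.606 at Kdm2a, nearly the same value in both libraries at each gene. Kdm5b, the H3K4 demethylase, had 0.598 RPKM in FC and 0.682 in CON. Kdm6b, the H3K27 demethylase, is the shortest member at 15.17 kb and the most exonic at 45.9%, and it had 0.791 RPKM in FC and 0.667 in CON. In CON the order from high to low was Kdm4b, Kdm4a, Kdm3a, Kdm1a, Kdm3b, Kdm2b, Kdm5b, Kdm6b, Kdm2a and Kdm4c, and in FC Kdm3a, Kdm6b and Kdm1a followed Kdm4b and Kdm4a. Between neighbours in these orders the spread over animals is not known.

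**Figure D1:**
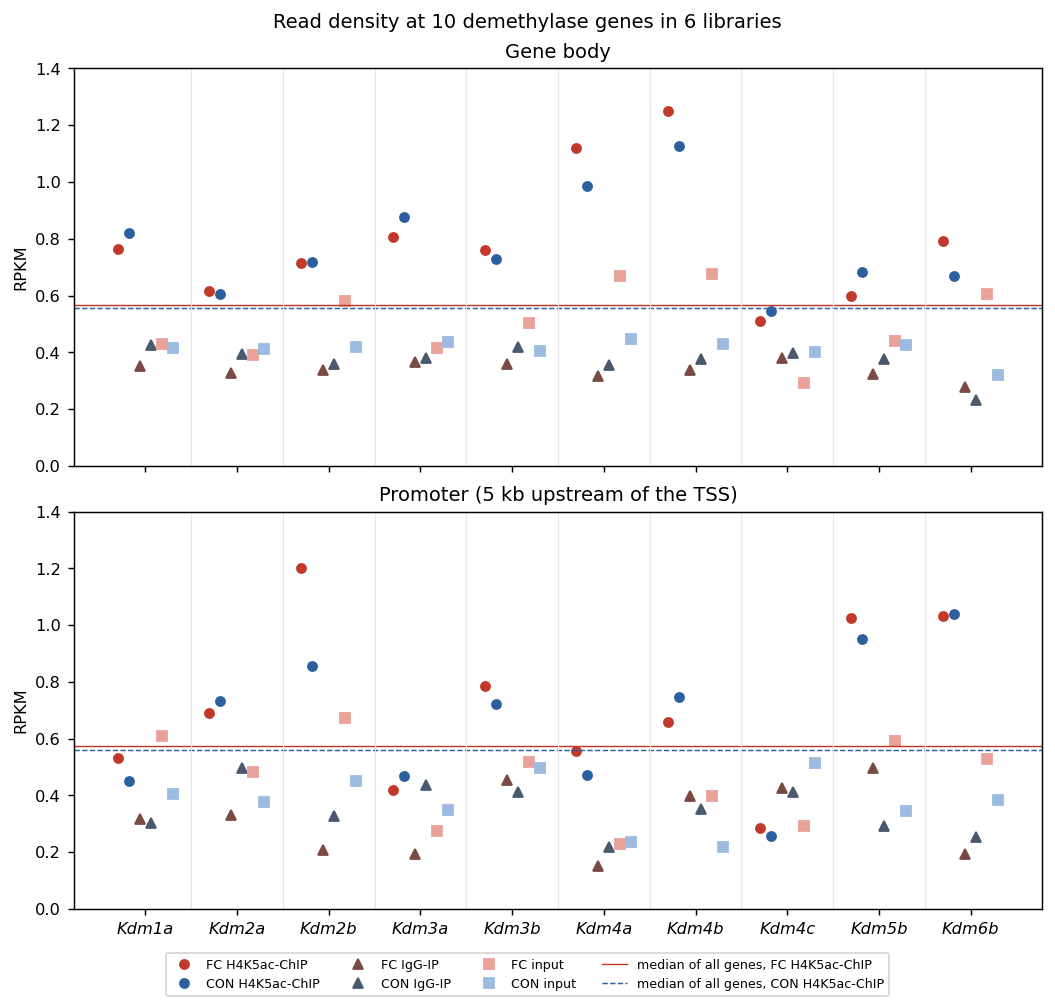
Read density in RPKM of the 10 demethylase genes in the 6 libraries, over the gene body (top) and the 5 kb upstream of the first TSS (bottom). Points are single libraries and horizontal lines the median of all autosomal protein-coding genes in each H4K5ac-ChIP library. Kdm4b and Kdm4a stand highest over the gene body and Kdm2b, Kdm6b and Kdm5b over the promoter, while Kdm4c is lowest in both in the H4K5ac-ChIP libraries.

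Relative to input, all 10 gene bodies had more H4K5ac-ChIP than scaled input reads in both groups, and the interval of each ratio lay above 1, as it did at 47.1% of all genes in FC and 61.5% in CON. These intervals are narrow at long genes with many reads. The ratio reached 1.5 at 7 members in FC, where 22.7% of 19781 genes did, and at 8 members in CON, where 42.8% of 19457 genes did. All members passed the minimum of 20 reads in both libraries of a pair together. In FC the ratio ran from 1.23 (1.17 to 1.29) at Kdm2b to 1.93 (1.77 to 2.12) at Kdm3a, with Kdm5b at 1.36 and Kdm6b at 1.304 also under 1.5. In CON it ran from 1.36 (1.29 to 1.44) at Kdm4c to 2.62 (2.45 to 2.80) at Kdm4b, and Kdm2a at 1.48 was the other member under 1.5. Kdm4c, the lowest in CON and by density, was not low in FC relative to input. Its log2 ratio there was 0.80 (0.72 to 0.88), beside 0.74 (0.64 to 0.85) at Kdm4a and 0.89 (0.81 to 0.97) at Kdm4b. On the log2 scale the median of the members was 0.70 in FC and 0.91 in CON, beside 0.20 and 0.49 over all genes tested. The members above the median of all genes numbered 10 in FC and 9 in CON.

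Relative to IgG-IP the ratio reached 1.5 at 9 members in FC, beside 57.0% of 18690 genes, and at 9 in CON, beside 52.4% of 18731 genes. Kdm4b led with 3.69 (3.32 to 4.12) in FC and 2.99 (2.71 to 3.30) in CON, followed by Kdm4a with 3.54 in FC and by Kdm6b with 2.88 in CON. Kdm4c was the one member under 1.5 in both groups, with 1.35 (1.25 to 1.46) and 1.37 (1.28 to 1.47). Relative to genes of the same GC content, in steps of 1%, the log2 ratio to input stayed above 0 at 9 members in FC and at 10 in CON. It was highest at Kdm3a in both groups, 0.68 in FC and 0.87 in CON, and lowest at Kdm6b, -0.03 in FC and 0.14 in CON. Counted in this way, 3 members in FC reached 1.5, beside 10.2% of 19691 genes, and 2 in CON, beside 9.73% of 19386.

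**Figure D2:**
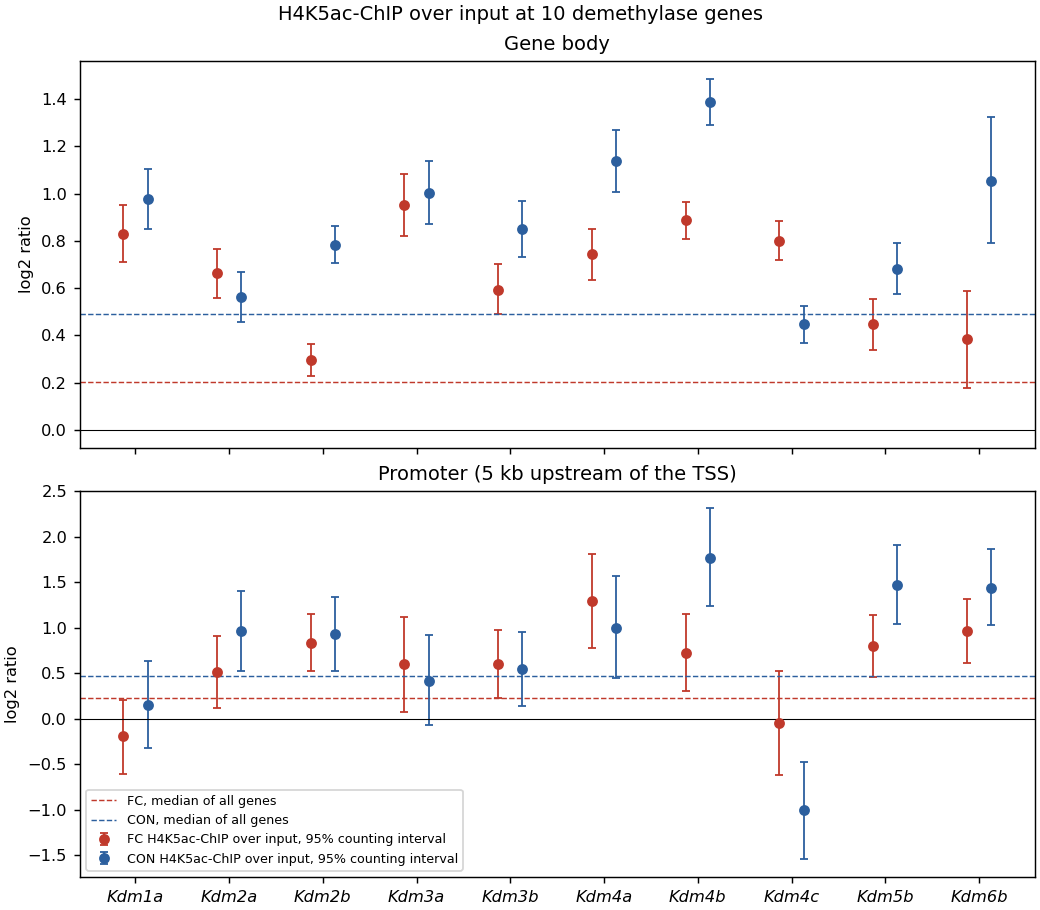
The log2 ratio of H4K5ac-ChIP to input, scaled to library size, for each gene in FC (red) and CON (blue), over the gene body (top) and promoter (bottom). Bars are exact 95% counting intervals and dashed lines the medians of all genes tested. All gene bodies lie above 0, and the promoter of Kdm4c lies below 0 in CON.

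At the promoters, taken as the 5 kb upstream of the first TSS, H4K5ac was highest at Kdm2b, Kdm6b and Kdm5b. The Kdm2b promoter had 1.202 RPKM of H4K5ac-ChIP in FC and 0.857 in CON, with 0.674 and 0.451 RPKM of input and 0.206 and 0.327 RPKM of IgG-IP. The Kdm6b promoter had 1.03 and 1.04 RPKM, with 0.530 and 0.383 RPKM of input. The Kdm5b promoter had 1.03 and 0.951 RPKM, with 0.591 and 0.344 RPKM of input. All 3 promoters were above percentile 90 of H4K5ac-ChIP levels in both groups, apart from Kdm2b in CON at 83.9. The promoter of Kdm2b is also the body of Orai1, a calcium channel gene of the opposite strand that covers 100% of these 5 kb, so that reads of the 2 genes cannot be told apart there. In the same way 48.5% of the Kdm4b promoter lies in Uhrf1 and 35.1% of the Kdm3b promoter in Fam53c.

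The ratio of H4K5ac-ChIP to input at the promoter reached 1.5 at 7 members in FC, beside 29.2% of 20787 genes, and at 6 in CON, beside 43.6% of 20762 genes. Over IgG-IP it reached 1.5 at 9 members in FC (54.4% of 20596 genes) and at 6 in CON (50.2% of 20622 genes). Relative to promoters of the same GC content the ratio to input reached 1.5 at 2 members in FC, beside 16.1% of all promoters, and at 3 in CON, beside 16.3%. The promoter of Kdm4a had the highest ratio to input in FC, 2.45 (1.72 to 3.52), from 88 H4K5ac-ChIP and 52 input reads, although its level of 0.557 RPKM was below the median of all promoters. In the bins of 250 bp centred from -4625 to -3625 bp of the Kdm4a TSS none of the 6 libraries had a read, so its density comes from less than the whole 5 kb. In CON the highest ratio was at Kdm4b, 3.39 (2.36 to 4.98), from 134 and 39 reads. Kdm1a and Kdm4c had ratios below the median of all genes in both groups, 0.873 (0.658 to 1.15) and 0.971 (0.650 to 1.44) in FC. The Kdm4c promoter had 0.499 (0.342 to 0.719) times the input in CON, and in FC and CON its 45 and 46 H4K5ac-ChIP reads compared with 31 and 34 reads in the shallower IgG-IP libraries. Scaled to library size, H4K5ac-ChIP was lower there than IgG-IP, with 0.285 beside 0.426 RPKM in FC and 0.256 beside 0.412 RPKM in CON.

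Around the first TSS, most members had more H4K5ac-ChIP reads before the start than after it. Most genes did so too, and so did input at most members. In the 1 kb upstream and the 1 kb downstream Kdm5b had 34 and 7 reads in FC and 49 and 7 in CON, where input had 20 and 2 in FC and 20 and 0 in CON. Kdm4b had 35 and 16 reads in FC and 42 and 4 in CON, where input had 22 and 12, and 9 and 7. Kdm2a had 43 and 20 reads in FC and 35 and 15 in CON, where input had 18 and 6, and 14 and 3. Upstream was denser at 7 of 10 members in FC and at 9 in CON for H4K5ac-ChIP, beside 60.3% and 63.6% of genes with at least 20 reads there, and at 7 and 6 for input, beside 51.8% and 54.1%. The interval of the H4K5ac-ChIP ratio lay above 1 at 5 members in FC and 4 in CON, beside 22.8% and 27.1% of genes. The interval of the input ratio lay above 1 at 3 members in FC (Kdm1a, Kdm2a and Kdm5b) and 2 in CON (Kdm2a and Kdm5b). For input no share over all genes was taken. Kdm4c in the FC H4K5ac-ChIP library, and Kdm2a, Kdm3b and Kdm4b in the CON input, were below that minimum of 20. The median of upstream over downstream reads over all genes was 1.18 in FC and 1.25 in CON for H4K5ac-ChIP, and 1.05 and 1.09 for input. Kdm2b was the one member denser downstream in both groups, with 16 reads upstream and 50 downstream in FC and 20 and 40 in CON. The first start of Kdm2b is used by 1 noncoding transcript. There Orai1 starts on the opposite strand and overlaps the Kdm2b body by 7 bp, so that reads of the 2 starts cannot be told apart. Kdm6b was denser downstream in FC with 26 and 38 but not in CON with 59 and 46.

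Within 1 kb of the first TSS on both sides, H4K5ac-ChIP was at least 1.5 times as dense as in the rest of the gene body at 2 members in FC, Kdm2a and Kdm2b, beside 31.8% of 17579 genes, and at 1 in CON, Kdm6b, beside 23.6% of 17566 genes. Kdm2a had 1.62 (1.24 to 2.08) times the density of its body in FC and 1.256 (0.943 to 1.64) in CON. Kdm2b had 1.52 (1.18 to 1.93) and 1.16 (0.886 to 1.501) times, and for both genes the intervals of the FC and CON libraries overlapped. Reads near the start of Kdm2b cannot be told apart from those of Orai1. Kdm6b had 1.33 (1.00 to 1.75) times in FC and 2.33 (1.85 to 2.92) in CON, from 64 and 105 reads near the start. Kdm3a, Kdm3b, Kdm4b and Kdm4c had less H4K5ac near the start than along the body in both groups, between 0.463 and 0.683 times in FC and between 0.586 and 0.663 in CON. Input was also sparser near the start than along the body at Kdm3b (0.517 and 0.449 times) and Kdm4b (0.611 and 0.521 times), and relative to input H4K5ac-ChIP near the start of both genes was at or above that of the body, with log2 ratios of 0.99 beside 0.59 in FC at Kdm3b and 0.96 beside 0.89 at Kdm4b. At Kdm3a and Kdm4c input near the start was between 0.902 and 1.195 times that of the rest of the body. The median over all genes was 1.21 in FC and 1.10 in CON. These counts depended on how reads were counted. With 1 read per position and strand 0 members reached 1.5 times in FC, beside 31.1% of genes, and as a ratio to input 4 did in FC and 3 in CON, beside 36.4% and 37.1%.

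**Figure D3:**
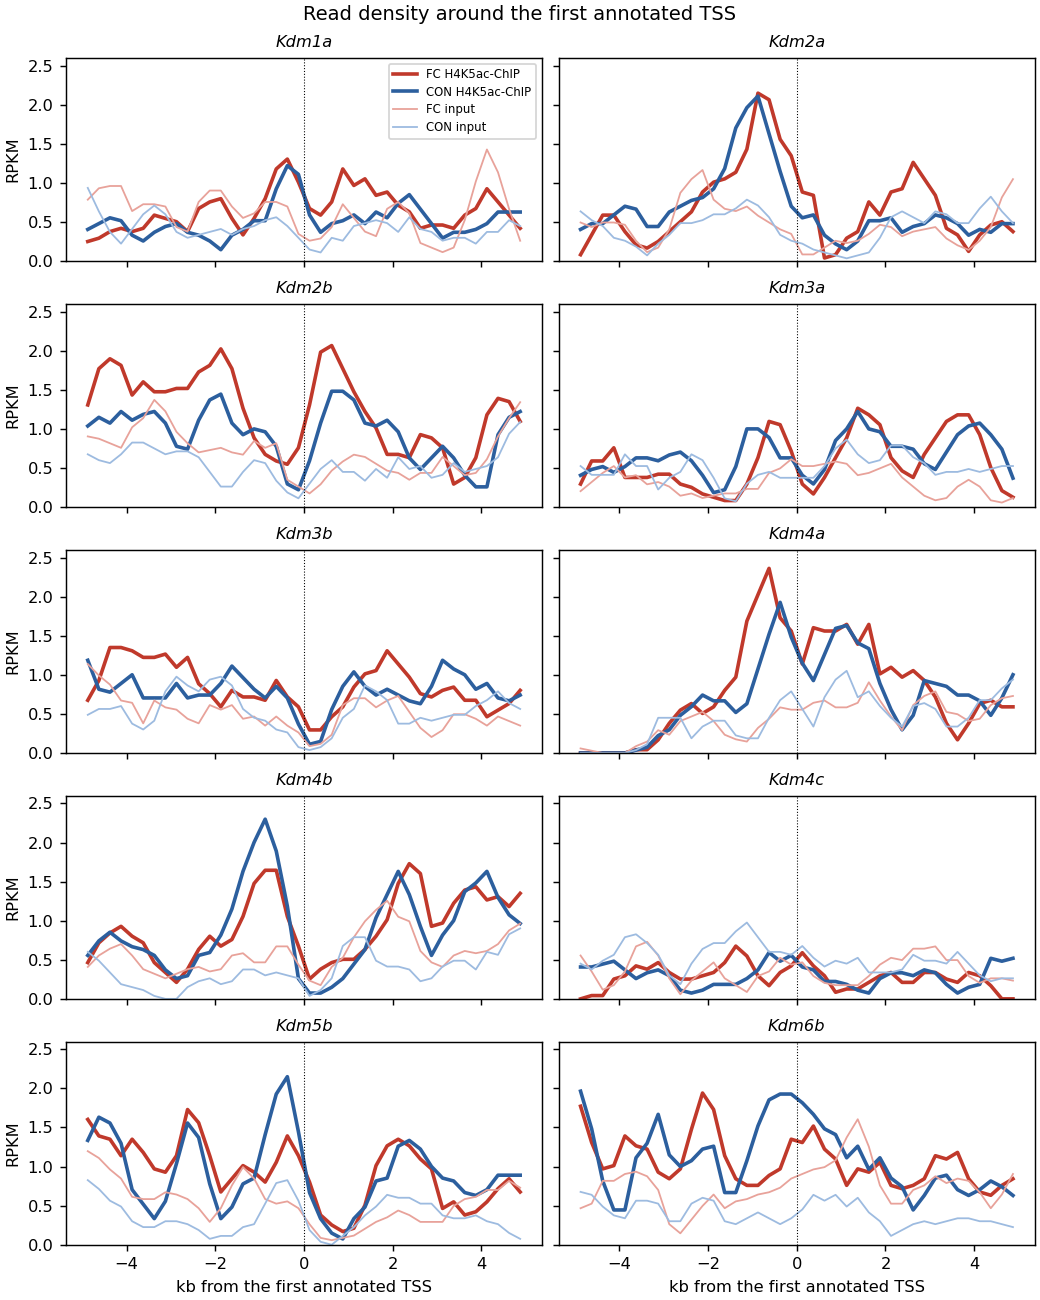
Read density in RPKM in bins of 250 bp, averaged over 3 neighbouring bins, from 5 kb before to 5 kb after the first annotated TSS (dotted line) of each gene, for H4K5ac-ChIP and input in FC and CON. H4K5ac-ChIP rises above input just before the start of Kdm2a, Kdm4a, Kdm4b and Kdm5b. Around the first start of Kdm4c it is close to input in FC and mostly at or below input in CON.

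By H4K5ac-ChIP reads of both libraries together, the first annotated start ranked first among the starts of its gene at Kdm2a and Kdm6b. By the ratio to input it ranked first at 5 members in FC (Kdm2a, Kdm2b, Kdm4a, Kdm5b and Kdm6b) and at 4 in CON (Kdm2a, Kdm3b, Kdm5b and Kdm6b). For these ranks no share over all genes was taken, and the members differ in their number of starts. At Kdm4b the second start, 46233 bp downstream and used by 1 noncoding transcript, had 123 reads in FC and 124 in CON, beside 51 and 48 at the first. Input reads were also more at the second start, 67 and 41 beside 38 and 16, and the ratio to input was 2.65 in FC and 2.99 in CON there, beside 1.94 and 2.96 at the first. At Kdm4c, within 1 kb of the first start, used by 1 transcript, there were 15 FC and 26 CON reads of H4K5ac-ChIP, beside 27 and 34 input and 15 and 16 IgG-IP reads. Its second start, 9439 bp downstream, was denser, with 71 and 61 H4K5ac-ChIP reads beside 35 and 19 input and 10 and 6 IgG-IP reads. The ratio to input was 0.803 in FC and 0.755 in CON at the first start and 2.93 and 3.17 at the second, whose log2 intervals ran from 0.95 to 2.18 in FC and from 0.90 to 2.49 in CON. The 2 starts differ in sequence as well, since the stretch before the first holds no CG dinucleotide and the stretch before the second holds 27. By both H4K5ac-ChIP libraries together, the highest of the 163 windows of 1 kb in the gene, chr4:73896401-73897400, lies next to the second start with 39 reads in FC and 48 in CON beside 16 and 5 input reads, while in FC alone the next window downstream had 1 read more. It lies within the antisense noncoding gene A230083N12Rik, whose reads cannot be told apart from those of Kdm4c.

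Between FC and CON some of the 43 start groups of the members differed in both directions. At the third start of Kdm4c, 20312 bp from the first and shared by 4 transcripts, there were 55 FC and 29 CON reads of H4K5ac-ChIP, a log2 ratio of FC over CON of 1.11 (0.44 to 1.81), with 35 and 32 input reads. Among the 16 start groups of Kdm2b, the group at 30109 bp, used by 1 noncoding transcript, had 60 FC and 101 CON reads of H4K5ac-ChIP (log2 ratio -0.57, from -1.05 to -0.09) beside 60 and 40 input reads. The second and the third start of Kdm1a, each used by 1 coding transcript, had log2 ratios of -0.68 (-1.28 to -0.11) and -0.69 (-1.31 to -0.09), from 40 FC and 73 CON reads and from 37 and 68. These starts were named because their intervals excluded 0, a choice that favours large ratios, and no share over the starts of all genes stands beside them. Of the 43 the interval lay above 0 at 2, with the first start of Kdm4a, and below 0 at 4, with the first start of Kdm6b. The group at 25257 bp of Kdm2b has the most transcripts of that gene, 6 in all and 3 of them coding, and there 59 and 54 reads were counted. Over all 43 start groups of the members, those with at least 12 CG dinucleotides numbered 16, and their median log2 ratio to input was 0.93 in FC and 1.18 in CON. The other 27 had medians of 0.61 and 1.07. Across the 43 starts, which share libraries and in part overlap within a gene, Spearman's rho of CG number with this ratio was 0.04 in FC and 0.20 in CON, so CG number described little of how the starts differed.

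Within the gene bodies H4K5ac was spread unevenly in Kdm4a and Kdm4b. In 5 equal parts of the body from the TSS on, Kdm4a had 0.859, 0.786, 1.09, 1.54 and 1.355 RPKM in FC and 0.787, 0.691, 0.997, 1.33 and 1.14 RPKM in CON, where input lay between 0.536 and 0.836 RPKM in FC and between 0.428 and 0.494 RPKM in CON. Part 4 of Kdm4a was thus the densest in both libraries, followed by part 5. In Kdm4b parts 3 and 4 were densest, with 1.60 and 1.49 RPKM in FC and 1.44 and 1.36 RPKM in CON. Its window with the most H4K5ac-ChIP, 53 kb from the start at chr17:56518485-56519484, held 78 reads in FC and 81 in CON, beside 49 and 21 input reads and 3 and 2 IgG-IP reads. Kdm1a was densest toward its end, with 0.910 RPKM in FC in part 5 and 1.02 RPKM in CON in part 4, beside 0.585 and 0.578 RPKM in part 1. Input in the same parts was 0.487 RPKM in FC and 0.427 in CON, beside 0.409 and 0.389 in part 1. The log2 ratio to input was highest in part 3 in FC, 0.955 beside 0.902 in part 5, and in part 4 in CON, 1.25. The end of Kdm1a, 8.13% of its body, overlaps Luzp1 of the opposite strand, and reads of the 2 genes cannot be told apart there. Kdm4c stayed between 0.482 and 0.540 RPKM in FC and between 0.494 and 0.577 in CON.

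The course of H4K5ac along a gene was alike in the FC and CON libraries at some members and less so at others. Across windows of 1 kb, Spearman's rho between the H4K5ac-ChIP libraries was 0.80 over the 43 windows of Kdm4a, 0.82 over the 15 of Kdm6b, 0.68 over the 144 of Kdm2b and 0.62 over the 76 of Kdm4b. It was lowest at Kdm2a, 0.32 over 82 windows, and at Kdm3b, 0.35 over 62. Between the input libraries rho ran from 0.02 at Kdm6b to 0.36 at Kdm3b. A window has the same bases in every library, and the GC content of single windows was not taken into account. Between H4K5ac-ChIP and the input of its own group, rho ran from 0.17 at Kdm4b to 0.69 at Kdm6b in FC. In CON it ran from 0.11 at Kdm4a to 0.45 at Kdm5b. At Kdm2a this rho was 0.32 in FC and 0.23 in CON, at Kdm3b 0.52 and 0.31, and at Kdm6b 0.43 in CON. The density of exons over introns ran in FC from 0.758 at Kdm6b to 1.49 at Kdm2a for H4K5ac-ChIP and from 0.752 at Kdm6b to 1.67 at Kdm4c for input. In CON it ran from 0.678 at Kdm4b to 1.26 at Kdm4a for H4K5ac-ChIP, and Kdm2a had 1.05 (0.895 to 1.23). Input at Kdm2a differed alike, with 1.52 (1.305 to 1.77) in FC and 1.04 (0.851 to 1.26) in CON.

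**Figure D4:**
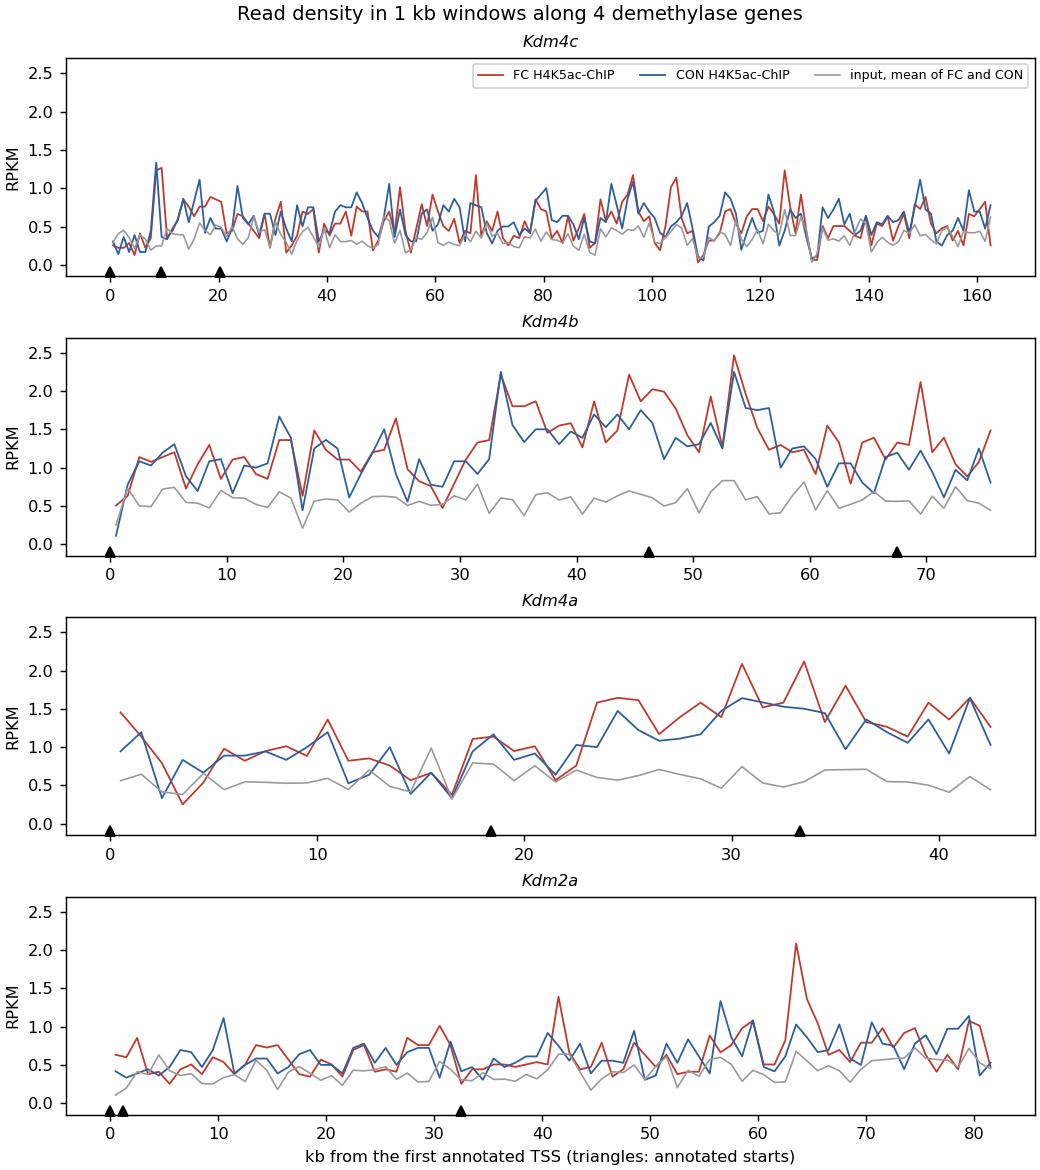
Read density in RPKM in 1 kb windows along Kdm4c, Kdm4b, Kdm4a and Kdm2a for the FC and CON H4K5ac-ChIP libraries, with the mean of both input libraries in grey and triangles at annotated starts. Kdm4c has its highest window next to its second start, Kdm4a and Kdm4b carry the most H4K5ac in the middle and later parts of the gene, and Kdm2a has its highest FC window 63 kb from the start, which is not its highest in CON.

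Between the FC and CON libraries, H4K5ac-ChIP over the gene bodies of the demethylases differed by less than 1.2-fold at every member. The ratio of FC over CON reached 1.2 at 0 members, beside 14.9% of 18758 genes, and CON was higher by 1.2 at 0 members, beside 5.89%. The ratio was highest at Kdm6b with 379 H4K5ac-ChIP reads in the FC library and 364 in CON, 1.19 (1.02 to 1.37) after scaling to library size. It was 1.13 (1.06 to 1.22) at Kdm4a, from 1523 and 1529 reads, and 1.11 (1.06 to 1.17) at Kdm4b, from 3033 and 3108. It was lowest at Kdm5b, 0.877 (0.817 to 0.941) from 1374 and 1783 reads, and its interval was also below 1 at Kdm3a and Kdm4c. Kdm2a, which the study named under its older name Fbxl11 among genes with a region higher after conditioning, had 1.02 (0.950 to 1.09) over its whole body. That region was not located here, and the value of the whole body does not bear on it. The study also measured mRNA of this gene in other animals. It reported more after conditioning in the hippocampus and no significant change in the cerebellum. The libraries used here do not measure RNA. On the log2 scale the median of the members was 0.01 and that of all genes 0.04.

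The order of the members in this ratio went along with GC content and with the input libraries. Across the 10 gene bodies, which share the same pairs of libraries, Spearman's rho with GC content was 0.75 for the log2 ratio of FC over CON in H4K5ac-ChIP and 0.98 for that in input. Input was higher in FC at the GC-rich bodies of Kdm6b, Kdm4b and Kdm4a by 1.89, 1.57 and 1.49 times, and at the GC-poor Kdm4c it was 0.734 times that of CON. Less the input ratio, the log2 values of H4K5ac-ChIP became -0.67 at Kdm6b, -0.50 at Kdm4b, -0.49 at Kdm2b, -0.39 at Kdm4a, -0.26 at Kdm3b and 0.35 at Kdm4c. The median of all genes was itself -0.26 on that scale, so that Kdm6b, Kdm4b, Kdm2b and Kdm4a lay below it, Kdm4c above it and Kdm3b at it. CON was then higher by 1.2 at 4 members, beside 49.6% of 18757 genes, and FC at 1, beside 12.0%. Less the IgG-IP ratio, the same 6 genes had -0.01, 0.31, 0.07, 0.35, 0.28 and -0.03, beside a median of 0.10 over all genes, and FC was higher by 1.2 at 4 members, beside 29.9% of 18710 genes. Relative to genes of the same GC content, the log2 ratio of FC over CON lay between -0.16 (Kdm5b) and 0.08 (Kdm2a and Kdm4a) at all members. The part of GC content in these ratios was not tested.

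At the promoters the ratio of FC over CON reached 1.2 at 1 member, Kdm2b, beside 23.0% of 20373 genes, and CON was higher by 1.2 at 0 members, beside 13.7%. The Kdm2b promoter, which is also the body of Orai1, had 190 H4K5ac-ChIP reads in FC beside 154 in CON, a ratio of 1.404 (1.13 to 1.75). Its input reads were 154 and 80, a ratio of 1.496 (1.14 to 1.99), and its IgG-IP reads 15 and 27. Less the input ratio, the log2 value of 0.49 became -0.09, which is above the median of all promoters on that scale, -0.21. At the other 9 promoters the intervals included 1, and the ratios ran from 0.883 (0.677 to 1.15) at Kdm4b to 1.18 (0.859 to 1.62) at Kdm1a. Less the input ratio the promoters lay further apart, with log2 values of -1.04 at Kdm4b, -0.67 at Kdm5b and 0.96 at Kdm4c, and CON was higher by 1.2 at 5 members, beside 44.9% of all promoters. FC was then higher at 2 members, beside 19.3%. Within 1 kb of the first TSS the H4K5ac-ChIP ratio was 1.41 (1.04 to 1.91) at Kdm4a, from 100 reads in FC and 81 in CON with 44 and 37 input reads. That interval, on the log2 scale 0.05 to 0.93, includes the median of all genes near the TSS, 0.19. It was 0.694 (0.5001 to 0.955) at Kdm6b, from 64 and 105 reads, where input had 64 reads in FC and 28 in CON.

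**Figure D5:**
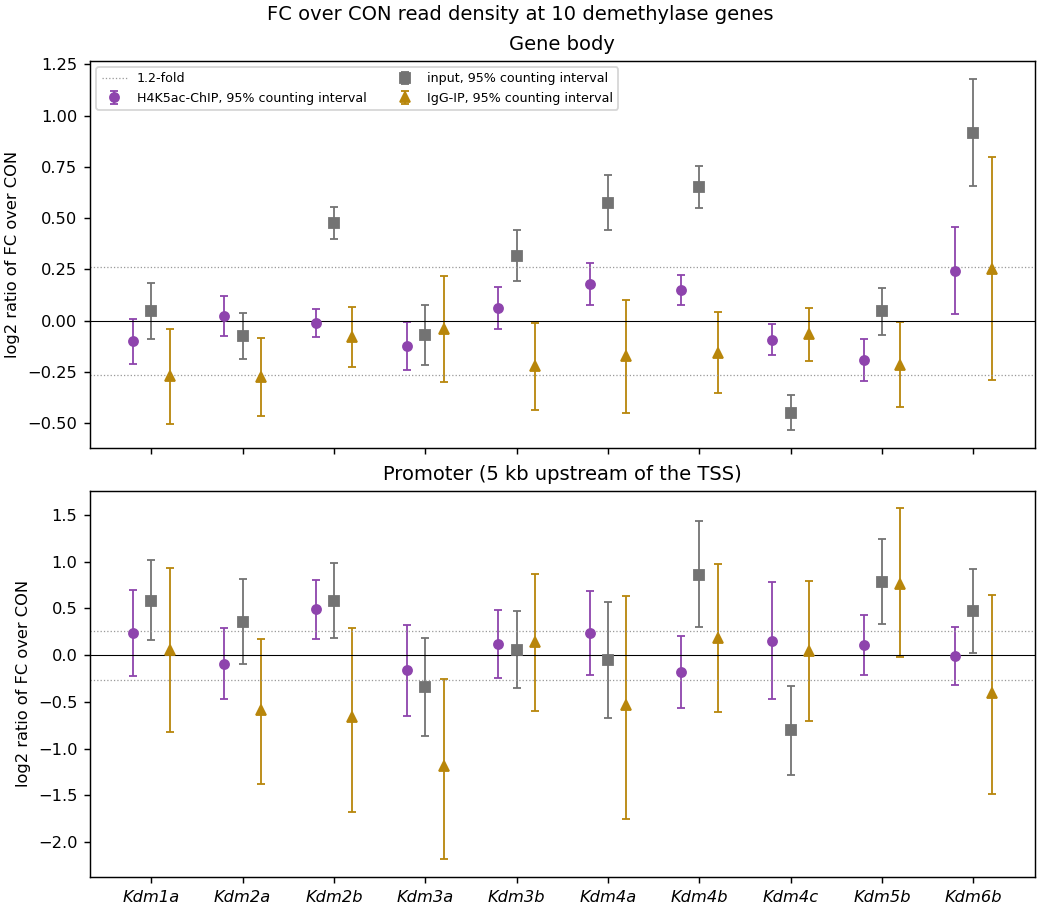
The log2 ratio of FC over CON of read density scaled to library size at each gene, for H4K5ac-ChIP, input and IgG-IP, over the gene body (top) and the promoter (bottom). Bars are exact 95% counting intervals, and dotted lines mark 1.2-fold. Over gene bodies the H4K5ac-ChIP points stay within the dotted lines, while the input points of Kdm2b, Kdm3b, Kdm4a, Kdm4b, Kdm4c and Kdm6b lie outside them.

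Differences within the genes were looked at in 1 kb windows, since the study's peak calling gave regions rather than whole genes. The study also compared genes by the number of reads in their promoters. Of the 752 windows of the members 734 had at least 20 H4K5ac-ChIP reads in both libraries together. FC was higher by 1.5 or more in 86 of them (11.7%), where 12.8% of 773173 windows of all genes were, and CON was higher in 104 (14.2%), where 15.4% were. The members were thus near the background in both directions. Less the input ratio the shares were 20.4% in FC and 32.2% in CON, beside 19.3% and 31.8% of all windows. In the 526 windows with at least 40 reads they were 11.03% and 10.7%, beside 11.01% and 11.03%. Kdm2a had 15 windows in each direction of 82 tested. Kdm3a had 1 window higher in FC and 14 higher in CON of 43, Kdm1a 2 and 13 of 52, and Kdm4b 13 and 1 of 76.

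In Kdm2a the window with the highest ratio, 30 kb from the start at chr19:4367267-4368266, had 32 FC and 12 CON reads of H4K5ac-ChIP (log2 1.60, from 0.61 to 2.69), where input had 32 and 14. The Kdm2a window with the most H4K5ac-ChIP reads, 63 kb from the start at chr19:4334267-4335266, had 66 FC and 37 CON reads. That is a ratio of 2.03 (1.34 to 3.12), where input had 31 and 24 reads, or 0.679 and 0.676 RPKM, and IgG-IP 1 and 8 reads. In Kdm4b the first window after the TSS had 16 and 4 reads (log2 2.19, from 0.55 to 4.23), with 14 and 7 input reads. In Kdm4c the window 9 kb from the start, which holds the second start, had 40 and 13 reads (log2 1.81, from 0.88 to 2.84), with 11 and 9 input reads, while the window before it had 39 and 48. In Kdm3a the highest was 42 kb from the start at chr6:71539900-71540899, with 53 and 26 reads (log2 1.21, from 0.51 to 1.95), beside 35 and 21 input reads and 2 and 9 IgG-IP reads. That of Kdm3b, 12 kb from the start, had 41 and 15 reads (log2 1.64, from 0.75 to 2.597), with 19 and 16 input reads. Their counting intervals do not allow for the choice of the highest window. In the other direction the window of Kdm4a 3 kb from the start had 8 reads in FC and 30 in CON (log2 -1.72, from -3.06 to -0.56), with 22 and 10 input reads. The lowest window of Kdm4c, 162 kb from the start, had 8 and 28 reads (log2 -1.62, from -2.97 to -0.45), with 35 and 17 input reads. That of Kdm5b, 37 kb from the start, had 15 and 44 reads (log2 -1.37, from -2.32 to -0.49), with 23 and 19 input reads. The lowest window of Kdm2a, 78 kb from the start at chr19:4319267-4320266, had 14 and 35 reads (log2 -1.14, from -2.14 to -0.205), with 25 and 14 input reads. That of Kdm3b, 8 kb from the start, had 12 and 32 reads (log2 -1.23). Kdm1a had 14 and 40 reads in its lowest window, Kdm2b 15 and 39, and Kdm3a 10 and 27, with log2 values of -1.33, -1.19 and -1.25. Apart from the window of Kdm2a with the most reads, each of these windows was named as an extreme of its gene, in either direction. That choice itself makes the ratio large. The window of Kdm2a with the most reads was also picked after its values were seen. In the windows with the most reads of the other members, FC over CON ran from 0.606 (0.385 to 0.938) at Kdm1a to 1.41 (0.872 to 2.31) at Kdm5b.

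Other genes of histone lysine methylation were given by lists of 12 further demethylases and JmjC proteins, 29 methyltransferases and 11 partners of the demethylases, of which Bcor lies on a sex chromosome and was left out. Over the gene bodies H4K5ac-ChIP reached 1.5 times input in FC at 4 of 12 demethylases, 15 of 29 methyltransferases and 3 of 10 partners, and in CON at 6, 21 and 8, with 22.7% and 42.8% of all genes as background. The median log2 ratios in FC were 0.48, 0.59 and 0.49, beside 0.70 for the members and 0.20 for all genes. Jmjd1c, a JmjC protein related to Kdm3a, was highest of its list at 1.01 (0.95 to 1.08) and Jmjd6 lowest at 0.01 (-0.34 to 0.36). Among methyltransferases Setd8, which acts on H4K20, was highest at 1.08 (0.92 to 1.24), and Prdm9, a gene of meiosis, lowest at -0.38 (-0.64 to -0.12). Among partners Rcor2, a CoREST protein, was highest at 0.90 (0.63 to 1.18) and the deacetylase gene Hdac1 lowest at 0.11 (-0.06 to 0.27).

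Between FC and CON the H4K5ac-ChIP of the gene body was higher in FC by 1.2 or more at 1 of the 12 demethylases, 3 of the 29 methyltransferases and 2 of the 10 partners, and higher in CON at 1 methyltransferase, beside 14.9% and 5.89% of all genes. The counts of demethylases and methyltransferases were below that share in FC. Rcor2 had 252 reads in FC and 220 in CON (log2 0.38, from 0.12 to 0.65), with 195 and 99 input reads. Its input had 0.540 RPKM in FC beside 0.353 in CON, a larger fold than that of H4K5ac-ChIP (1.01 and 0.774 RPKM). Suv39h2, an H3K9 methyltransferase, had 212 and 316 reads (log2 -0.39, from -0.65 to -0.13), with 352 and 263 input reads. Setd8 had a log2 ratio of 0.26 (0.12 to 0.41), with 566 and 329 input reads, and Ehmt2 of 0.28 (0.05 to 0.51), with 434 and 194 input reads. At both genes input was higher in FC as well, at 0.554 RPKM beside 0.414 for Setd8 and 0.610 beside 0.351 for Ehmt2. Suv420h2 at 0.27, Riox1 at 0.59 and Pcgf1 at 0.57 had intervals that included 0, the last from 60 and 46 reads.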

How the data were processed

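Chromatin of the hippocampus was sequenced in 6 libraries. Per the methods, the authors aligned SOLiD reads to mm9 with Bioscope. Each deposited record is 1 aligned read of 25 to 50 bp with a mapping quality score from 4 to 100, which the authors' alignment gave and which is no count. Between 11.47% and 17.84% of the reads of a library repeated a position and strand. Groups were taken from the labels.

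Reads overlapping a region by at least 1 bp were counted with Python 3.11.15, NumPy 2.4.6 and SciPy 1.17.1, whatever their score, and scaled to the total reads of the library. Reads on either side of the TSS, in exons and introns, and in 10 kb windows were instead placed by their midpoint. Figures were drawn with matplotlib 3.10.9. Genes, transcripts and sequence came from GENCODE and the genome, both of mm9, and starts within 500 bp were grouped. Ratios have exact (Clopper-Pearson) 95% binomial intervals, which cover counting error only, since reads without molecular identifiers are not independent molecules. A pair of libraries needed 20 reads together. Background shares were taken over all autosomal protein-coding genes. Counting and intervals were tested on simulated reads.

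All 10 members were named, and of each list of other genes the highest and lowest ratio to input in FC and those past 1.2-fold between FC and CON. The windows with the most reads were chosen after their values were seen. The members, lists and thresholds were chosen with earlier results of these data known. The alternatives were IgG-IP in place of input, 1 read per position and strand, reads with a score of at least 20, comparison within GC content, library size without the 1% of 10 kb windows with the most input reads, the midpoint of the read, promoters of 2 kb, other starts, gene bodies without their first 2 kb or without parts of other genes, centring on the median of all genes, and a minimum of 40 reads for windows.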

Additional observations from a re-analysis of the deposited data

How the results depend on the processing

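No paired analysis was possible because each group and antibody had 1 library, so no replicates could be paired or left out. Compared within genes of the same GC content, the members at or above 1.5 times input numbered 3 in FC and 2 in CON over gene bodies, and 2 and 3 at promoters (10.2%, 9.73%, 16.1% and 16.3% of all genes), whereas the other alternatives kept these counts within 1.5 times of those reported. Less the input ratio, FC was higher by 1.2 at 1 gene body and 2 promoters and CON at 4 gene bodies and 5 promoters, with medians of all genes of -0.26 over bodies and -0.21 at promoters. Less the IgG-IP ratio, FC was higher at 4 gene bodies and 5 promoters and CON at 2 promoters (29.9%, 39.6% and 23.9% of all genes), with medians of 0.10 and 0.12. FC was higher at 2 promoters with 1 read per position and strand and at 2 with a score of at least 20, and promoters of 2 kb gave 3 higher in FC and 1 higher in CON, beside 20.9%, 24.2%, 32.7% and 19.2% of all genes. The promoter ratio of Kdm2b turned to -0.092 on the log2 scale less the input ratio, above that median. Near the TSS, the members at 1.5 times the body numbered 0 in FC with 1 read per position and strand, 4 and 3 in FC and CON as a ratio to input, and 4 and 6 at the start with the most reads, which was chosen on these reads and has no share over all genes beside it. Windows higher by 1.5 numbered 150 in FC and 236 in CON less the input ratio, and 56 in CON with at least 40 reads, near the share of all windows. The cause of these shifts was not tested. Depth limits what can be seen at promoters and single starts, where the 9 promoter ratios of FC over CON from 0.883 to 1.18 had counting intervals that included 1.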
